A study of Mus musculus with 8 samples.

Results

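Of the astrocyte cytoskeleton, 5 genes are described here, out of 25239 gene symbols measured in the mouse corpus callosum. *Gfap*, *Vim*, *Nes*, and *Synm* encode proteins of the intermediate filaments of astrocytes, and *Plec* encodes a protein that ties these filaments to the rest of the cell. They were chosen by symbol for this role, with earlier results of these data known. All 5 of 5 were found and passed the filter on low values. RNA-seq was made of 8 libraries, from adult mice of the C57BL/6 strain. Bilateral common carotid artery stenosis (BCAS) narrows both carotid arteries with microcoils and lowers blood flow to the brain, and the sham operation omits the coils. For the label WT (wild type) and for the label TRPA1-KO (a germline deletion in the ion channel gene *Trpa1*, carried by all cells and backcrossed to the same strain), 1 library came from sham on day 14 and 1 each from BCAS on days 7, 10, and 14. The comparisons ask whether expression after BCAS differed from sham, and whether it differed between the 2 genotype labels. No sham library came from day 7 or 10, so on those days BCAS cannot be told apart from time since the operation.

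Intermediate filaments are ropes of coiled-coil proteins that give a cell its mechanical strength. In astrocytes, glial fibrillary acidic protein (GFAP) and vimentin form the main network. Resting white matter astrocytes hold GFAP filaments already, and astrocytes that react to injury are known for larger amounts of GFAP and vimentin and for the return of nestin, a filament protein of neural stem and progenitor cells. Nestin and synemin cannot build filaments on their own and join those of other filament proteins such as vimentin. Plectin is a giant linker protein of the plakin family that connects intermediate filaments to microtubules, actin, and adhesion sites.

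The expression levels are reads per gene scaled by the authors to a common library size and given as CPM. The libraries held between 7896071 and 12952093 reads on genes, so that 1 read was worth 0.0782 to 0.126 CPM. The members rested on many reads in every library, between 1430 and 15912 for *Gfap*, 273 and 3646 for *Vim*, 92 and 367 for *Nes*, 414 and 796 for *Synm*, and 2541 and 4062 for *Plec*. Each label and day had 1 library. The 3 BCAS libraries of a label therefore served as its replicates and both sham libraries as 1 group, so every SD and p-value includes variation between days along with that between mice. In bulk tissue, fewer cells of a type and less RNA per cell cannot be told apart.

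*Trpa1* reads went against the genotype labels. It had 1 read in the sham library labelled WT and 0 reads in each of the 3 BCAS libraries labelled WT, against 10 reads in the sham library labelled TRPA1-KO and 11, 3, and 7 reads in its BCAS libraries of days 7, 10, and 14. For this reason, libraries go by the label they were deposited with, and directions are those between labels. The reads are counted over the whole gene and do not show whether the deleted exons were read. The BCAS library labelled WT of day 7 stood apart from the other libraries in holding the lowest level of 25.8% of the 10744 genes that averaged 10 CPM or more, against 6.77% to 13.7% in the others. It held the highest level of 16.8% of these genes, close to the 16.6% of the library labelled TRPA1-KO of day 7. Differences without it are given below for *Gfap*, *Vim*, *Nes*, and *Synm*, and not for the other genes named.

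The sequences before the start sites are shown first, and their part in the levels was not tested. *Gfap* and *Vim* varied together over the libraries, *Nes* followed them only in part, and *Synm* did not. They come from RefSeq (GRCm38.p6) and run 5′ to 3′ on the strand of the gene, and a promoter window spans 250 bases before to 50 bases after an annotated start. Each window was searched on both strands for TATAAA (a core promoter box), TTCNNNGAA (the palindrome that STAT transcription factors bind), TGANTCA (bound by AP-1), and GGGCGG (bound by Sp1), and capitals mark a match. Among all 32851 windows of the same length, these letters were present in 13.6%, 8.30%, 7.81%, and 35.7%, in this order. *Gfap* (chr11:102897194-102897443, minus strand) is shown with the bases leading to its start site, where a match to the STAT palindrome begins at position -2. *Vim* (chr2:13574267-13574296, plus strand) and *Nes* (chr3:87971014-87971043, plus strand) are shown around a core promoter box at position -32 and around a pair of Sp1 boxes on the opposite strand. *Synm* (chr7:67759743-67759992, minus strand) had no match to any of the 4 motifs in its window, and the AP-1 letters matched in none of the 4 windows. The RefSeq starts of *Gfap*, *Vim*, and *Nes* lie inside the GENCODE gene bounds given with the levels, since some annotated transcripts begin further upstream.
Gfap: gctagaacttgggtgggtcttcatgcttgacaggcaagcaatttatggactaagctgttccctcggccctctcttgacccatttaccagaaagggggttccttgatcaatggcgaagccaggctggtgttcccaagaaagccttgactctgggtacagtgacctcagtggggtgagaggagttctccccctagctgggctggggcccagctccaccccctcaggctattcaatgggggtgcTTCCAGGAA
Vim: tcctaacagtgtTATAAAagcagcgccctt
Nes: tagggaCCGCCCcttttCCGCCCggccggc
Synm: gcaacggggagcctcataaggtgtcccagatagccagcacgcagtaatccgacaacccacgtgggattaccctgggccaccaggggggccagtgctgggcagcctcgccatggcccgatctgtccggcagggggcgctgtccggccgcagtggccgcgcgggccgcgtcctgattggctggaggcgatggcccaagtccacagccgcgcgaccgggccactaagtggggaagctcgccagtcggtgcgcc

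In GENCODE M21 on GRCm38, *Gfap* lies at chr11:102887336-102900912 on the minus strand with 3 transcripts. After sham, *Gfap* measured 200.4 CPM (label WT) and 234 CPM (label TRPA1-KO). In the BCAS libraries labelled WT, it measured 1415 CPM on day 7, 1060 CPM on day 10, and 157 CPM on day 14. In those labelled TRPA1-KO, it measured 167, 169, and 427 CPM on days 7, 10, and 14. The highest and the lowest library thus carried the same label and operation and differed in day, with a 9.02-fold range over all 8 libraries. The library labelled TRPA1-KO of day 14 was the third highest and lay above both sham libraries. Against the mean of both sham libraries, the level was 6.51-fold on day 7 and 4.88-fold on day 10 with the label WT and 0.722-fold on day 14, whereas with the label TRPA1-KO it was 0.769-fold, 0.779-fold, and 1.96-fold on the same days.

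*Vim* (chr2:13573927-13582826, plus strand, 6 transcripts) encodes vimentin, which astrocytes share with microglia, endothelial cells, and fibroblasts. Its levels were 36.1 and 39.7 CPM in the sham libraries labelled WT and TRPA1-KO. After BCAS, it measured 324, 109, and 30.0 CPM on days 7, 10, and 14 with the label WT, and 33.0, 30.0, and 53.6 CPM under the label TRPA1-KO. The order of the libraries at the top was that of *Gfap*, with days 7 and 10 labelled WT first, followed by day 14 labelled TRPA1-KO. On day 7, *Vim* stood further above sham than *Gfap* did (8.56-fold), and on day 10 less far (2.87-fold), so that the ratio of *Gfap* to *Vim* CPM moved from 4.36 on day 7 to 9.75 on day 10, the lowest and the highest of the 8 libraries.

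*Nes* (chr3:87971078-87980451, plus strand, 3 transcripts) encodes nestin, which endothelial cells also make. It measured 13.1 and 14.9 CPM in the sham libraries labelled WT and TRPA1-KO. After BCAS, it measured 32.6, 15.6, and 10.1 CPM on days 7, 10, and 14 with the label WT, and 10.9, 14.3, and 11.0 CPM under the label TRPA1-KO. Only the library labelled WT of day 7 stood clear of the others. On day 10, the level with the label WT was 1.09-fold of that with the label TRPA1-KO, and the 95% counting interval of this ratio, from 0.849 to 1.40, holds 1.

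*Synm* (chr7:67730160-67759742, minus strand, 5 transcripts) encodes synemin, which also anchors protein kinase A and signalling complexes to filaments. It measured 62.3 and 59.1 CPM in the sham libraries labelled WT and TRPA1-KO. After BCAS, it measured 47.7, 52.2, and 56.6 CPM on days 7, 10, and 14 with the label WT, and 58.0, 58.7, and 62.6 CPM under the label TRPA1-KO. Each of the 3 BCAS libraries labelled WT lay below each of the other 5 libraries, and the lowest was that of day 7, where *Gfap*, *Vim*, and *Nes* were highest. *Synm* shares 84 exonic bases with the antisense gene *Ttc23* (1.15 to 4.38 CPM) and 426 with *Gm45102*, which had no row of its own. The strand setting of the counting is not given, and without strand their reads cannot be told apart.

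*Plec* (chr15:76170974-76232574, minus strand, 22 transcripts) varied least, with a 1.17-fold range over the 8 libraries. Plectin is present in many cell types besides astrocytes. It measured 318 and 320 CPM in the sham libraries labelled WT and TRPA1-KO. After BCAS, it measured 323, 320, and 363 CPM on days 7, 10, and 14 with the label WT, and 334, 347, and 310 CPM under the label TRPA1-KO. Its highest library was that labelled WT of day 14, in which *Gfap*, *Vim*, and *Nes* were lowest. It shares 205 exonic bases with *Parp10* on the same strand, which measured 1.41 to 5.96 CPM.

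**Figure D1:**
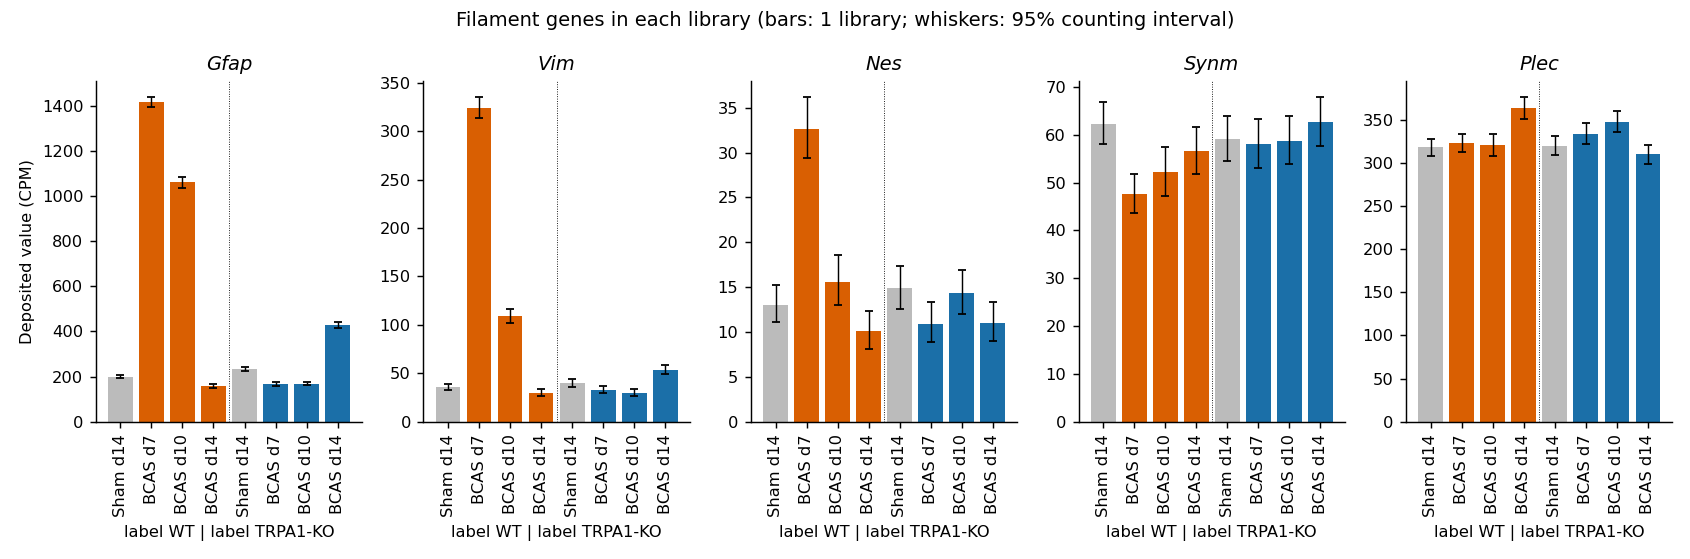
Deposited level (CPM, axes from 0, 1 scale per gene) of the 5 genes in each of the 8 libraries, with grey bars for sham, orange for BCAS labelled WT, and blue for BCAS labelled TRPA1-KO. Each bar is 1 library and its whisker the 95% counting interval. *Gfap* reaches 1415 CPM and *Vim* 324 CPM in the library labelled WT of day 7, while *Synm* stays between 47.7 and 62.6 CPM and *Plec* between 310 and 363 CPM.

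Divided by the length of the principal transcript, levels can be compared between the genes. In the sham libraries, *Gfap* was the most abundant at 82.1 ± 9.08 CPM per kb (SD, n = 2), followed by *Plec* at 20.7 ± 0.0970, *Vim* at 17.3 ± 1.17, *Synm* at 7.76 ± 0.290, and *Nes* at 2.28 ± 0.208. No neighbours in this order overlapped between the sham libraries. In the BCAS libraries labelled TRPA1-KO, the order of the means was the same, at 96.1 ± 56.4, 21.4 ± 1.24, 17.7 ± 5.86, 7.65 ± 0.319, and 1.97 ± 0.315 CPM per kb (SD, n = 3), and the ranges of *Plec* and *Vim* overlapped. In those labelled WT, *Vim* lay above *Plec* on day 7 (148 against 20.9 CPM per kb) and on day 10 (49.6 against 20.7) and below it on day 14 (13.7 against 23.5). The share of *Gfap* in the summed CPM of the 5 genes was 31.8% and 35.1% in the sham libraries, 66.1% and 68.1% under the label WT on days 7 and 10, and 25.4% on day 14. Under the label TRPA1-KO, it was 27.7%, 27.3%, and 49.4% on days 7, 10, and 14.

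The BCAS libraries labelled WT were then compared with those labelled TRPA1-KO, to ask whether expression after BCAS differed between the genotype labels. *Gfap* averaged 877 ± 649 CPM (label WT) and 254 ± 149 CPM (label TRPA1-KO), *Vim* 154 ± 152 and 38.8 ± 12.8 CPM, and *Nes* 19.5 ± 11.7 and 12.1 ± 1.93 CPM (SD, n = 3 each). For these 3 genes, the groups overlapped, and the library labelled WT of day 14 was the lowest of the 6. *Synm* averaged 52.2 ± 4.48 CPM (label WT) and 59.8 ± 2.49 CPM (label TRPA1-KO) without overlap, and *Plec* averaged 335 ± 24.2 and 330 ± 19.1 CPM.

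On the log2(CPM + 1) scale, the difference of WT minus TRPA1-KO was 1.43 for *Gfap* (SE 0.70, 95% interval -0.13 to 2.98) and 1.42 for *Vim* (SE 0.65, interval -0.022 to 2.87). Neither reached an unadjusted p under 0.05 (limma adjusted p = 0.98 for both). For *Nes*, it was 0.50 (SE 0.33, limma adjusted p = 0.98), and for *Plec* 0.021 (SE 0.085, limma adjusted p = 0.99, interval -0.17 to 0.21). *Synm* was the 1 member with an unadjusted p under 0.05 and the 1 member without overlap, with a difference of -0.20 (SE 0.086, limma adjusted p = 0.98). Over all 18123 genes tested, 4.20% had a p under 0.05, 9.21% had groups that did not overlap, and 3 genes (0.0166%) had an adjusted p under 0.05, none of them a member. The members' median difference was 0.50 and that of all genes 0.0010. In exact permutation tests (two-sided, 3 libraries against 3, which cannot go below p = 0.10), p was 0.10 for *Synm*, 0.40 for *Gfap*, *Vim*, and *Nes*, and 0.80 for *Plec*.

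The *Gfap* and *Vim* results depended on single libraries. Without the library labelled WT of day 14, the difference was 2.41 for *Gfap* (limma adjusted p = 0.041), 2.29 for *Vim* (limma adjusted p = 0.065), and 0.86 for *Nes* (limma adjusted p = 0.26). Without that labelled TRPA1-KO of day 14, it was 1.87 for *Gfap* (limma adjusted p = 0.95), with an unadjusted p under 0.05. Without the library labelled WT of day 7, it was 0.83 for *Gfap*, 0.60 for *Vim*, and 0.064 for *Nes* (limma adjusted p = 0.999 for each), and without that of day 10 it was 1.04, 1.38, and 0.57 (limma adjusted p = 0.99 for each). For *Synm*, leaving out any 1 of the 6 libraries kept the sign, and the unadjusted p was under 0.05 only without the library labelled WT of day 14 (-0.26, limma adjusted p = 0.36). The difference was -0.13 without the library labelled WT of day 7 and -0.16 without that labelled TRPA1-KO of day 14.

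**Figure D2:**
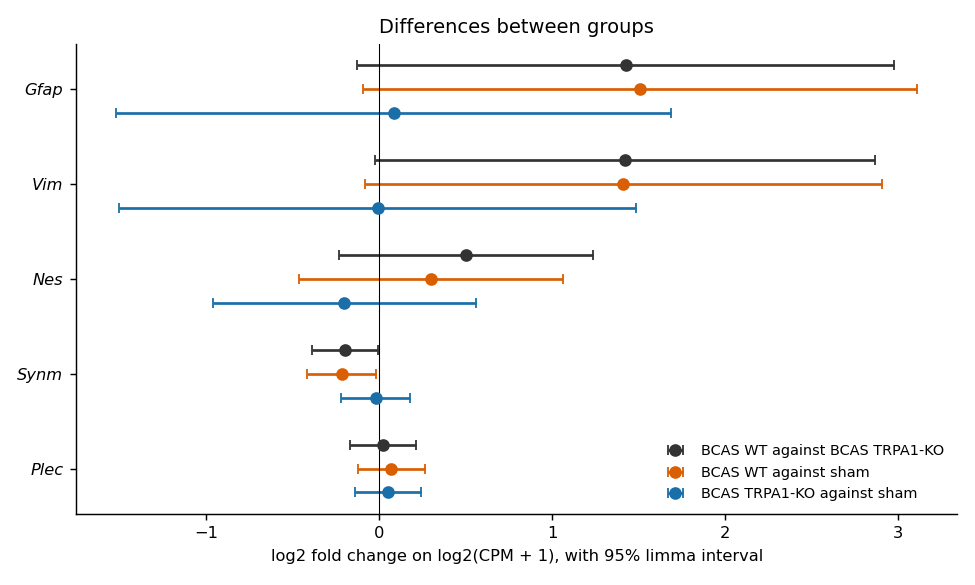
Difference between groups on the log2(CPM + 1) scale for each of the 5 genes, with 95% limma intervals. Black marks BCAS WT minus BCAS TRPA1-KO, orange BCAS WT minus sham, and blue BCAS TRPA1-KO minus sham. The intervals of *Gfap* and *Vim* are wide and hold 0 in all 3 comparisons, and that of *Synm* lies just below 0 for black (-0.39 to -0.0046) and orange (-0.42 to -0.019).

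Taken day by day, the direction between the labels turned for *Gfap* and *Vim*. For *Gfap*, the level labelled WT divided by that labelled TRPA1-KO was 8.47 on day 7 (95% counting interval 8.03 to 8.93), 6.26 on day 10 (5.93 to 6.61), and 0.368 on day 14 (0.346 to 0.391). For *Vim*, it was 9.84 (8.74 to 11.1), 3.62 (3.16 to 4.16), and 0.559 (0.481 to 0.649) on the same days. These intervals cover counting error in 1 library of each label and not the spread between mice. For scale, the sham libraries of the 2 labels had a *Gfap* ratio of 0.855 (0.808 to 0.904) and a *Vim* ratio of 0.908 (0.794 to 1.04). The *Synm* ratio lay below 1 on each day, at 0.822 on day 7 (0.727 to 0.929), 0.888 on day 10 (0.780 to 1.01), and 0.904 on day 14 (0.802 to 1.02). That of *Plec* was 0.966, 0.922, and 1.17.

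**Figure D3:**
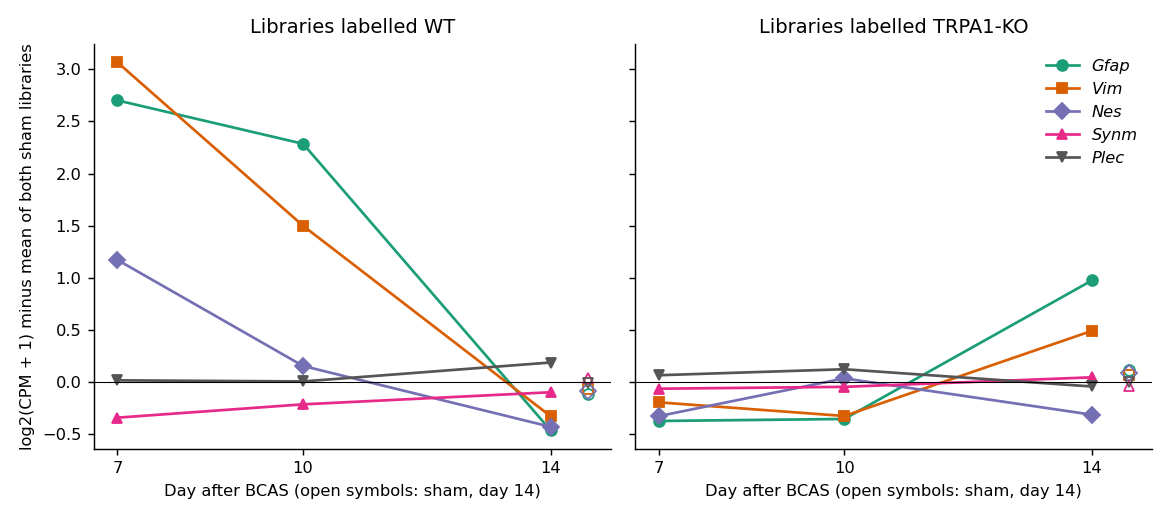
Level of each gene in each library, on the log2(CPM + 1) scale after subtracting the sham average, against the day after BCAS, with the libraries labelled WT on the left and TRPA1-KO on the right. Filled symbols joined by lines are single BCAS libraries, and open symbols at the right edge are the sham library of that label (day 14). With the label WT, *Gfap* goes from 2.70 on day 7 to 2.28 on day 10 and -0.46 on day 14, and with the label TRPA1-KO it stands at 0.97 on day 14.

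Against sham, the BCAS libraries labelled WT averaged higher for *Gfap* and *Vim* and lower for *Synm*. The sham libraries averaged 217 ± 24.0 CPM for *Gfap*, 37.9 ± 2.57 for *Vim*, 14.0 ± 1.27 for *Nes*, 60.7 ± 2.27 for *Synm*, and 319 ± 1.50 for *Plec* (SD, n = 2). The difference of BCAS WT minus sham was 1.51 for *Gfap* (SE 0.73), 1.41 for *Vim* (SE 0.68), and 0.30 for *Nes* (SE 0.35) on the log2(CPM + 1) scale, and the groups overlapped for each. For *Synm*, it was -0.22 (SE 0.091) and for *Plec* 0.070 (SE 0.087), both without overlap. For *Plec*, the lowest BCAS library labelled WT (320.2 CPM) barely exceeded the higher sham library (319.9 CPM), and their counting intervals overlapped. *Synm* alone had an unadjusted p under 0.05, and the limma adjusted p of the 5 genes lay between 0.90 and 0.96. On the recovered reads, the difference was 2.02 for *Gfap* and 2.04 for *Vim* with edgeR (adjusted p = 0.69 for both), and 2.02 and 2.03 with DESeq2 (adjusted p = 0.84 and 0.82), each with an unadjusted p under 0.05, while *Synm* did not reach this with DESeq2. Of all genes, 988 (5.45%) had a p under 0.05 and 19.9% had groups that did not overlap, and 0 genes (0%) had an adjusted p under 0.05 with limma or with edgeR, against 24 genes with DESeq2. Exact permutation tests (two-sided, 3 libraries against 2, with a smallest p of 0.10) gave p = 0.40 for *Gfap* and *Vim*, 0.80 for *Nes*, 0.20 for *Synm*, and 0.50 for *Plec*. Without the library labelled WT of day 14, the difference was 2.49 for *Gfap* and 2.28 for *Vim* (limma adjusted p = 0.018 and 0.048), and without that of day 7 it was 0.91 and 0.59 (limma adjusted p = 0.94 for both). The *Synm* difference without the library of day 7 was -0.16 (limma adjusted p = 0.94).

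The BCAS libraries labelled TRPA1-KO did not differ detectably from sham in any of the 5 genes. The difference was 0.082 for *Gfap* (SE 0.73), -0.0095 for *Vim* (SE 0.68), -0.20 for *Nes* (SE 0.35), -0.021 for *Synm* (SE 0.091), and 0.049 for *Plec* (SE 0.087), with a limma adjusted p of 1 for each and exact permutation p between 0.30 and 1. The interval was wide for *Gfap* (-1.52 to 1.69) and narrow for *Synm* (-0.22 to 0.18). No member had a p under 0.05 or groups without overlap, against 2.74% and 18.6% of all genes, and 1 gene, *Mog* of the myelin sheath, had an adjusted p under 0.05 (0.00552%). Without the library of day 14, the *Gfap* difference was -0.36. Both comparisons with sham use the same 2 sham libraries, both of day 14. Relative to the sham library of its own label, the BCAS change with the label WT minus that with the label TRPA1-KO was 1.65 for *Gfap*, 1.56 for *Vim*, 0.67 for *Nes*, -0.27 for *Synm*, and 0.031 for *Plec* (limma adjusted p = 0.9998 for each, none with an unadjusted p under 0.05), a test added after the data were seen.

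Of 16 other intermediate filament genes, 13 were tested, and none had a p under 0.05 in any of the 3 comparisons. Of all genes tested, 2.74% to 5.45% had one. The neurofilament genes *Nefl*, *Nefm*, and *Nefh* and the internexin gene *Ina*, which build the filaments of axons, had their highest level in the library labelled TRPA1-KO of day 7, at 508, 381, 106, and 293 CPM. The nuclear lamin gene *Lmna* measured 50.7 to 66.1 CPM, and *Des*, the filament of muscle, 0.891 to 2.40 CPM. The epithelial keratin genes *Krt5* and *Krt14* were at 0 reads in all 8 libraries.

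Among 16 plakins and adhesion linkers, to which *Plec* belongs by function, 1 gene had a p under 0.05 between the BCAS groups. Of all genes tested, 4.20% did, and against sham 5.45% (label WT) and 2.74% (label TRPA1-KO). *Evpl* (envoplakin) measured 18.8, 10.3, and 11.4 CPM (label WT) and 7.57, 9.29, and 9.68 CPM (label TRPA1-KO) on days 7, 10, and 14 (difference 0.52, limma adjusted p = 0.98). Against sham, *Eppk1* (epiplakin) was lower with the label WT (-0.64, limma adjusted p = 0.91), at no more than 43 reads per library. None passed with the label TRPA1-KO. The large plakins *Dst* (528 to 624 CPM) and *Macf1* (355 to 424 CPM) also had narrow ranges. In the library labelled WT of day 7, the linker genes *Tln1* and *Itga6* had their highest levels, at 119 and 53.1 CPM against 66.4 and 28.4 CPM in the sham library of the same label.

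Of 17 genes for filament assembly and turnover, 1 had a p under 0.05 between the BCAS groups: *Cdk5*, a kinase that phosphorylates filament proteins, was lower with the label WT (-0.18, limma adjusted p = 0.98). Against sham, the protease gene *Capn2* was higher (0.25) and the filament chaperone gene *Cryab* lower (-0.32) with the label WT at an unadjusted p under 0.05 (limma adjusted p = 0.88 and 0.87), and none passed with the label TRPA1-KO. Of 10 transcription factor genes known to act on *Gfap* or *Vim*, none differed between the BCAS groups at a p under 0.05, and *Smad4* was lower with the label WT against sham (-0.20, limma adjusted p = 0.91). *Stat3*, of the STAT family of transcription factors, measured 93.4, 58.1, and 55.4 CPM on days 7, 10, and 14 with the label WT, 50.0, 53.5, and 56.6 CPM under the label TRPA1-KO, and 49.7 and 54.6 CPM in sham. The level on day 7 with the label WT was 1.79-fold of the sham mean. Its part in the *Gfap* level was not tested.

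The other astrocyte genes varied far less than *Gfap* and *Vim*. The summed level of 14 of them lay between 6663 and 7767 CPM, a 1.17-fold range, and was highest in the library labelled TRPA1-KO of day 14. *Slc1a2* makes up a large share of this sum. Gene by gene, 11 of the 14 were highest in the library labelled WT of day 7, where 12 lay above the sham mean with a median of 1.23-fold, against a median of 1.03-fold in that labelled TRPA1-KO of day 14. Between the BCAS groups, 3 of the 14 had a p under 0.05, against 4.20% of all genes, and each was higher under the label WT. These were *Aldh1l1* (0.46), an enzyme of folate metabolism, *Ntsr2* (0.23), a neurotensin receptor, and *Atp1b2* (0.28), a subunit of the sodium pump, each at limma adjusted p = 0.98. Against sham, these 3 and *Acsbg1* (0.17) were higher with the label WT at an unadjusted p under 0.05. Of all genes, 5.45% passed there in either direction. None of the 14 was higher with the label TRPA1-KO at this limit. The water channel gene *Aqp4* measured 155, 188, and 80.4 CPM on days 7, 10, and 14 with the label WT, 88.8, 85.6, and 114 CPM under the label TRPA1-KO, and 109 and 88.3 CPM in sham. *Slc1a2*, the main glutamate transporter of astrocytes, was lowest on day 7 under both labels, at 2675 CPM.

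**Figure D4:**
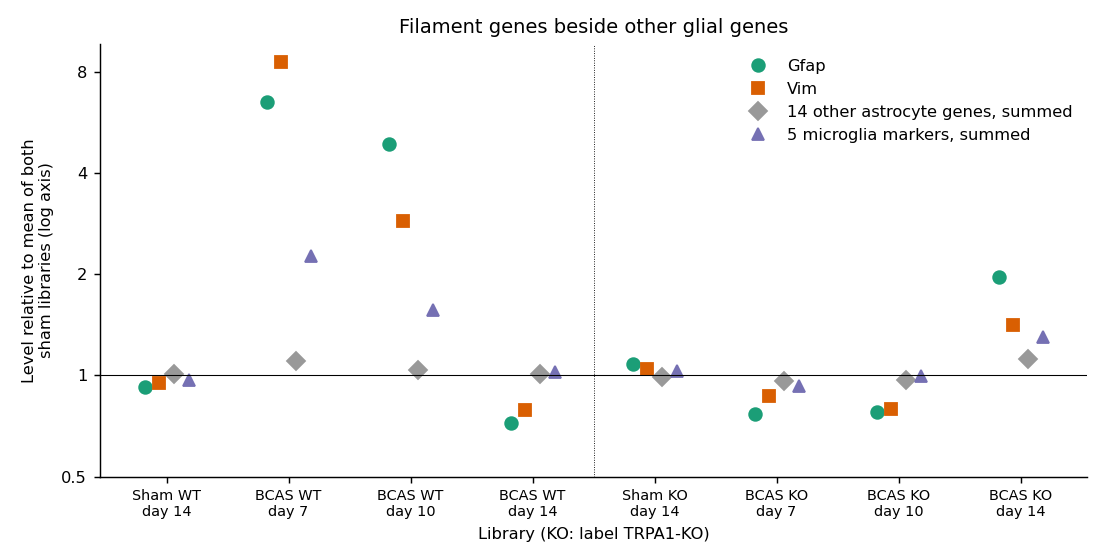
Level of *Gfap* and *Vim*, of 14 other astrocyte genes summed, and of 5 microglia markers summed in each library, divided by the mean of both sham libraries (log axis, with 1 at the line). The astrocyte sum stays between 0.963 and 1.12, while the microglia sum reaches 2.26 with the label WT on day 7, 1.57 on day 10, and 1.30 with the label TRPA1-KO on day 14.

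Among the marker lists of other cells, that of microglia had the order of *Gfap* and *Vim* at the top. The 5 microglia markers summed to 429 CPM with the label WT on day 7, 298 on day 10, and 247 with the label TRPA1-KO on day 14, against 177 to 196 CPM in the other 5 libraries, and all 5 were highest in the library labelled WT of day 7. Those 3 libraries are also the highest 3 for *Gfap* and *Vim*. The proliferation genes *Mki67* and *Top2a* measured 24.4 and 24.5 CPM in the library labelled WT of day 7 and at most 9.21 and 9.78 CPM elsewhere. The 6 striatal neuron markers were lower in every BCAS library, at 525 to 962 CPM in sum against 1014 and 1376 CPM in sham. They were lowest in the library labelled WT of day 7, where *Gfap* was highest. The next lowest was that labelled TRPA1-KO of day 7 (607 CPM), where *Gfap* measured 167 CPM. The 6 general neuron markers summed to 5313 CPM in the library labelled WT of day 7 and to 5903 to 7014 CPM in the others. The 8 oligodendrocyte markers summed to 12932 to 14620 CPM after BCAS and 15827 and 17362 CPM in sham. Endothelial (260 to 318 CPM), ependymal (30.3 to 46.9 CPM), and fibroblast markers (27.6 to 47.8 CPM) were also highest in the library labelled WT of day 7. Their ranges were 1.22-fold, 1.55-fold, and 1.73-fold, in this order. A sham library came close for endothelial (308 CPM, label WT) and ependymal markers (45.8 CPM, label TRPA1-KO). Oligodendrocyte precursor markers (447 to 565 CPM) and mural cell markers (155 to 175 CPM) were highest in the sham library labelled WT. Choroid plexus markers were low, but their sum was also highest in the library labelled WT of day 7, at 8.63 CPM. In the others it was 3.28 to 5.90 CPM. Of these markers, *Ttr* and *Kcne2* were at 0 reads in some libraries, and *Ttr* had at most 50 reads. The part of these cells in the levels of *Gfap*, *Vim*, and *Nes* was not tested.

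The shape of each profile over the 8 libraries was compared with those of 10743 other genes averaging 10 CPM or more, by the root-mean-square difference of log2(CPM + 1) standardized per gene, where 0 is the same shape. This is a description over 8 libraries, in which 2 or more libraries share each day. *Gfap* was most like *Zc3h7a* (0.103), *Ctss* (0.148), and *Bmpr1a* (0.159). A like shape need not mean a change of like size, since *Zc3h7a* measured only 49.9 to 59.8 CPM and *Bmpr1a* 56.3 to 70.6 CPM. *Ctss*, the lysosomal protease cathepsin S of microglia, measured 182, 133, and 54.0 CPM on days 7, 10, and 14 with the label WT and 78.3 CPM on day 14 with the label TRPA1-KO. *Vim* was most like *C1qa* (0.0715), the complement gene of microglia, and the small heat shock protein gene *Hspb8* (0.0761). *C1qa* measured 148 CPM with the label WT on day 7 and 26.7 CPM on day 14.

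Within the 5 genes, *Gfap* and *Vim* were closest to each other, at 0.284, and *Vim* ranked 35 among the genes nearest *Gfap*. *Vim* and *Nes* stood at 0.454 and *Gfap* and *Nes* at 0.656. *Nes* was most like *Lrig1* (0.218), *Serpine2* (0.226), and *Aaas* (0.255). *Synm* was far from these 3 members, at 1.75 to 1.80, and was most like *Nkain2* (0.195), *Nfyb* (0.222), and *Hp1bp3* (0.223). *Nkain2*, a gene of a protein that interacts with the sodium pump, measured 42.8, 49.9, and 59.9 CPM on days 7, 10, and 14 with the label WT and 75.6 CPM on day 14 with the label TRPA1-KO. *Plec* was most like *Plekhg5* (0.312), *Glrx5* (0.315), and *Bicdl1* (0.361), and its closest member was *Synm*, at 1.37.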

How the data were processed

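Corpus callosum was dissected on day 7, 10, or 14, polyadenylated RNA was selected, and the authors mapped reads to GRCm38 (mm10) with HISAT version 2.1.0, obtained gene counts from subread version 2.0.1, and used edgeR version 3.34.1 for normalization. The gene annotation, strand setting, and gene filter are not given in the sources used here. The deposited signal is CPM on the authors' effective library size, not log-transformed, with sums of 966202 to 1022160 per library. Every value (100%) corresponded to a whole number of reads (within 0.01 reads), so the reads were recovered.

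Values were tested as log2(CPM + 1), a scale that understates changes of low genes, using limma version 3.58.1 under R version 4.3.3 (trend, two-sided, Benjamini-Hochberg adjustment), for 18123 of 25239 genes averaging 0.1 CPM or more. The comparison of the BCAS groups used 6 libraries, and those with sham used all 8. The planned test was kept although the unit was recorded as a signal. Single genes also had exact permutation tests on the difference of mean log2 values. Counting intervals are 95% Clopper-Pearson intervals, and the same method gave those of ratios. They cover counting error only and not the spread between mice. PCR copies are not independent molecules, so counting error may be understated too. The steps were tested on simulated data.

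Alternatives were other pseudocounts, filters, and scalings, other sham libraries, all 8 libraries in 1 fit, day as a replicate block, each library left out, and, on the recovered reads, edgeR version 4.0.16 and DESeq2 version 1.42.0. Between the BCAS groups, edgeR gave 949 genes an unadjusted p under 0.05 and 2 genes an adjusted p under 0.05. The fits relative to the own sham library and without the day 7 or day 14 libraries were added after seeing the data. Deviations of same-day libraries from their group means had correlations of -0.10, 0.0051, and -0.26 on days 7, 10, and 14 over 10744 genes, so the days did not pair the libraries.

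The members and lists were chosen with earlier results of these data known. Named are the 5 members, *Trpa1*, overlapping genes, list genes with a p under 0.05 (at most 4 per list and comparison), and the 3 genes nearest each member's profile. The neurofilament, lamin, keratin, and desmin genes, *Dst*, *Macf1*, *Tln1*, *Itga6*, *Stat3*, *Fos*, *Aqp4*, *Slc1a2*, *Mki67*, and *Top2a* were named after their values were seen. Lists of astrocyte, microglia, oligodendrocyte, oligodendrocyte precursor, endothelial, mural cell, fibroblast, ependymal, choroid plexus, and neuron markers describe the cells in the tissue. A gene that these rules would name is not reported here, and it was left out of the marker sums.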

Additional observations from a re-analysis of the deposited data

How the results depend on the processing

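The number of genes with a p under 0.05 between the BCAS groups (761) was 271 relative to the sham library of the same label, 1852 without both day 14 libraries, and 325 to 1846 when 1 library was left out. Against sham with the label WT (988), it was 359 with the sham library labelled WT alone and 357 to 2013 with 1 library left out, and with the label TRPA1-KO (496), it was 254 with DESeq2 and 191 to 735 with 1 library left out.

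Between the BCAS groups, the sign held under all 18 alternatives for *Gfap*, *Vim*, *Nes*, and *Synm*. *Gfap* lay between 0.60 and 2.86, and the highest value, without both day 14 libraries, had a limma adjusted p of 0.00032. This fit was added after the data were seen and drops the day on which the *Gfap* direction between the labels turned. In it, 45 genes had an adjusted p under 0.05, against 3 in the main fit. With edgeR, the difference was 1.79 for *Gfap* (adjusted p = 0.91), and with DESeq2 1.78 for *Gfap* and 1.99 for *Vim* (adjusted p = 0.999 for both), all with an unadjusted p under 0.05. *Synm* had a p of 0.05 or more under 13 of 18 alternatives, and under 7 of 13 against sham. *Plec* was -0.083 without both day 14 libraries, -0.037 without that labelled WT, and -0.024 without that labelled TRPA1-KO.

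Against sham, *Nes* with the label WT was -0.14 without its day 7 library and at most 0.66 with 1 library left out. With the label TRPA1-KO, *Gfap* was -0.030 and *Synm* 0.016 against its own sham library alone (the same values when the sham library labelled WT was left out), *Gfap* was -0.36 without day 14, and *Vim* was 0.058 without the sham library labelled TRPA1-KO, 0.083 without day 7, 0.15 without day 10, 0.043 with edgeR, and 0.041 with DESeq2. With 1 library left out, *Gfap* reached 0.31 (without day 7), *Vim* -0.26 (without day 14), and *Synm* -0.059. The cause of these changes was not tested. With the day as a replicate block, the differences between the BCAS groups were 1.43 for *Gfap*, 1.42 for *Vim*, and -0.20 for *Synm*, with *Vim* below and *Synm* above an unadjusted p of 0.05 (limma adjusted p = 0.999 for each), and 632 genes had a p under 0.05.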
